A study of Mus musculus with 23 samples.

Results

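A set of 9 genes commonly read as markers of epithelial-mesenchymal transition was followed through 23 RNA sequencing libraries of mouse melanoma: Cdh1, Cdh2, Snai1, Twist1, Twist2, Vim, Fn1, S100a4 and Cd44. They were taken by name, from a list chosen with earlier results of these data known. All 9 were found among the 37620 gene identifiers of the count tables. The study compared primary melanomas of 2 genotypes and the metastases of one of them, in mice whose melanomas are induced with ultraviolet light. HP primaries (7 libraries) carried Nme1wt and Nme2wt alleles. HPN primaries (7 libraries) were Nme1+/- and Nme2+/-, as were the lymph node metastases (7 libraries) and the lung metastases (2 libraries). By label, brachial nodes are numbers 3, 4 and 8, cervical nodes 6 and 7a, and 7b is inguinal, while node 5 has no site beyond lymph. The labels gave no age, sex, dose of ultraviolet light or further alleles. Metastases carried the number of a primary in their titles, which was read as the same animal although the labels do not say so, and nodes 7a and 7b were summed to give 6 node samples. No label says that the numbered primaries came from separate animals, so the p-values reflect only how much these samples vary, which may be technical.

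Epithelial-mesenchymal transition is a programme in which cells give up cell-to-cell junctions and take on a migratory, mesenchymal form. E-cadherin (Cdh1) is lost at the junctions, N-cadherin (Cdh2), vimentin (Vim) and fibronectin (Fn1) are gained, and transcription factors of the Snail and Twist families repress Cdh1 by binding short motifs called E-boxes. Melanocytes derive from the neural crest and express vimentin already. In skin they are held to keratinocytes by E-cadherin, which keratinocytes make too. A bulk library of a skin tumour therefore adds the Cdh1 RNA of melanoma cells to that of epidermis, and fewer cells of a type cannot be told apart from less RNA per cell.

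Libraries held between 18870759 and 89481553 gene counts. Levels are given as CPM, the count of a gene relative to the total count of its library, after scaling between libraries. Counts of Nme1 lay between 7.85 and 29.3 CPM in HP primaries and between 5.20 and 13.2 CPM in HPN primaries (log2 difference -0.69, SE 0.27, edgeR adjusted p = 0.951). Nme2 lay between 0.320 and 0.863 CPM in the first and between 0.0685 and 0.408 CPM in the second (log2 difference -1.02, SE 0.38, adjusted p = 0.951). Fitted levels of both were lower in HPN primaries, neither passed the test over all genes, and the ranges overlapped. The mean log2 level of 8 melanocyte markers (Pmel, Mlana and others) was 8.80 to 11.58 in primaries, 7.99 to 11.26 in nodes and 10.49 and 10.72 in the lungs, so all libraries held melanocytic RNA, with node 5 lowest. In all, 8 libraries (HP 3, 6, 7 and 9, HPN 7, nodes 7a, 7b and 8) had a count above 0 for reads of low alignment quality and 15 had 0. No label or header names a batch, and this split, a property of the count tables whose origin is not given in the sources used here, was examined in the place of one. The set above 0 held a single HPN primary and no lung, so that only the set at 0 gave values of its own for the site comparisons.

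**Figure D1:**
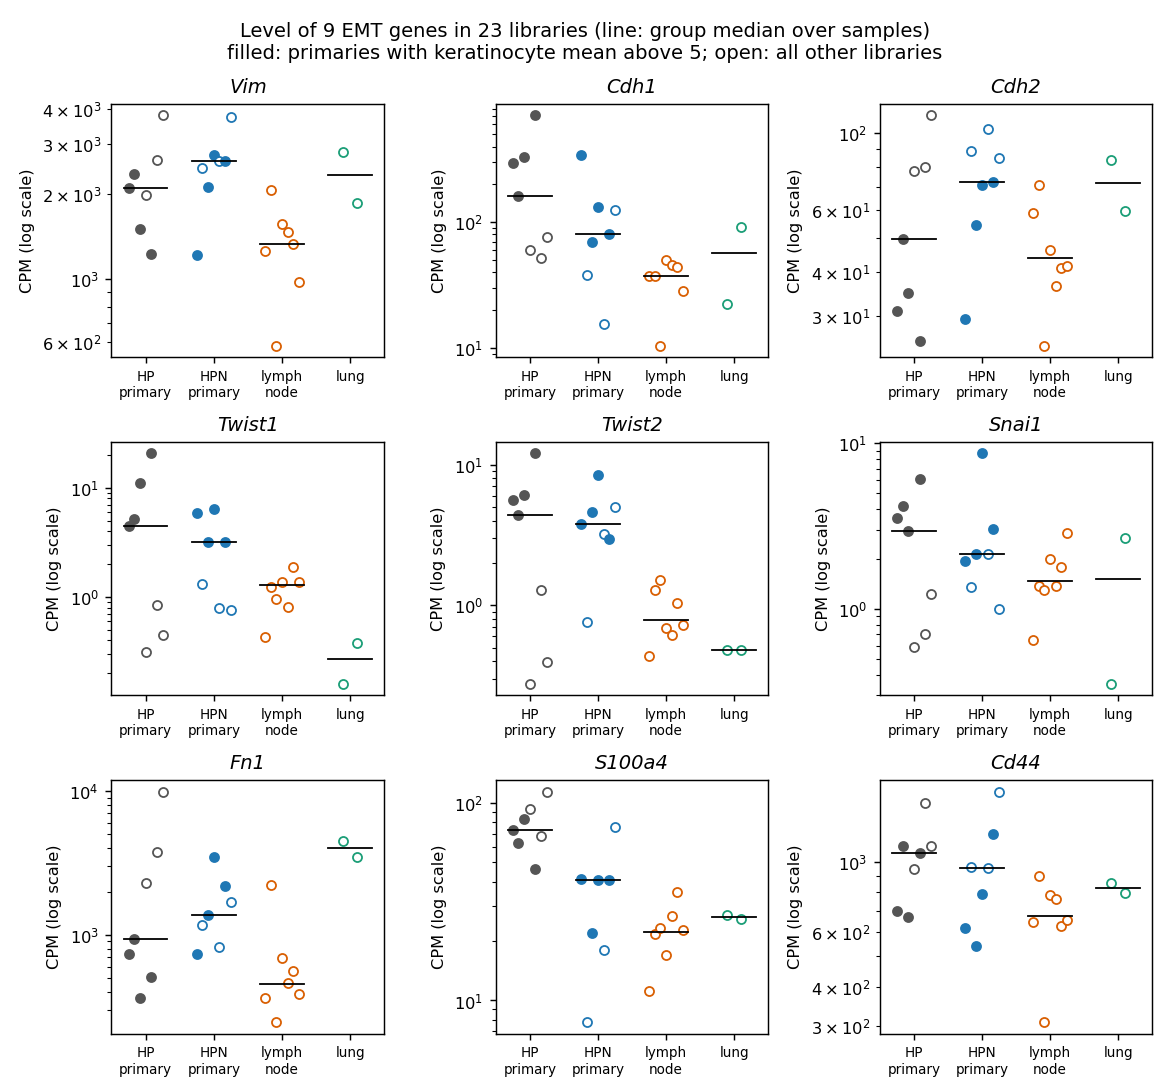
Level of each of the 9 genes (CPM, log axis) in the 23 libraries by group, with a line at the group median. Filled points are primaries with a keratinocyte marker mean above 5 and open points all other libraries. Twist1 and Cdh2 separate filled from open primaries, though the share of all genes that do so was not counted. Fn1 is highest in HP primary 9.

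Members differed widely in level. Compared per kilobase of exon, HPN primaries held 527 ± 159.6 CPM per kb of Vim (SD, n = 7), the intermediate filament protein. Cd44, the hyaluronan receptor, followed with 143 ± 57.4 and Fn1 with 141 ± 82.0 CPM per kb. The calcium-binding S100a4 stood at 60.0 ± 37.8, Cdh1 at 25.1 ± 23.9 and Cdh2 at 8.90 ± 2.99 CPM per kb. The 3 transcription factors were lowest, with 1.88 ± 1.42 for Twist1, 1.78 ± 1.62 for Snai1 and 1.29 ± 0.737 CPM per kb for Twist2. Within this order Cd44 and Fn1, Fn1 and S100a4, S100a4 and Cdh1, Cdh1 and Cdh2, and the 3 transcription factors lay within 1 SD of each other, taking the larger SD of a pair. In HP primaries the order differed in that Fn1 (226 ± 293 CPM per kb, n = 7) and S100a4 (132 ± 37.7) stood beside Cd44 (151 ± 44.0).

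The transcription factors act on other genes through E-boxes, and Snai1 also binds its own upstream region. The 250 bases before the start of each factor, from RefSeq (GRCm38.p6, plus strand in all 3 cases), are shown because they are the regions in which such a motif could be looked for. Capitals mark a match to CANNTG, a motif that reads the same on both strands. They span chr2:167537945-167538194 for Snai1, chr12:33957421-33957670 for Twist1 and chr1:91801211-91801460 for Twist2.
Snai1: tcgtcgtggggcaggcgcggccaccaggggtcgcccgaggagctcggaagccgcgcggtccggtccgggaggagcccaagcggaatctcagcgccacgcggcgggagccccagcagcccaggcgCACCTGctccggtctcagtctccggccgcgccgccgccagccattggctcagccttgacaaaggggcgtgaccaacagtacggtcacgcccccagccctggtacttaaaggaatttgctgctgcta
Twist1: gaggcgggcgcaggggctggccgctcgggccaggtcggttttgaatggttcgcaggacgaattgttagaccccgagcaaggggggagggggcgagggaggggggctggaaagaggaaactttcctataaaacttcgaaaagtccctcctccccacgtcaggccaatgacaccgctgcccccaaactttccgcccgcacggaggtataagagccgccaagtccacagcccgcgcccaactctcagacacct
Twist2: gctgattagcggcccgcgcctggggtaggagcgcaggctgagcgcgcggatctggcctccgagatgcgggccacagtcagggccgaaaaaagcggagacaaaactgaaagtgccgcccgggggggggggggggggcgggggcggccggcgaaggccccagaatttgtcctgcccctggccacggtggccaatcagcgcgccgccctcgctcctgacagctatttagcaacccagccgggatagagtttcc
The Snai1 window held 1 match, CACCTG, from 126 to 121 bases before the start, and those of Twist1 and Twist2 held none. Of 32851 windows of this length in the same table, 66.2% held CANNTG and 17.2% held CACCTG or its reverse complement CAGGTG. RefSeq windows were found for 6 of the 9 genes (Vim, Twist1, Twist2, Snai1, S100a4 and Cd44), and only that of Snai1 among these 6 held the motif. A match is a description of the sequence and was not linked to the expression values.

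Cdh1 varied widely among primaries, and keratinocyte content varied with it. The mean log2(CPM + 0.5) of 16 keratinocyte markers (Krt5, Krt14 and others, none of them a member) fell into 2 separate clusters. The lower one held 6 primaries (HP 5, 7 and 9, HPN 2, 5 and 7) with means between -0.15 and 2.0. The other 8 (HP 1, 3, 4 and 6, HPN 1, 3, 4 and 6) lay between 5.35 and 9.46, so that each cluster held both genotypes. Nodes lay between 0.46 and 1.78 and the lungs at 1.61 and 1.91, within the range of the lower cluster. Summed, the 16 markers made up 1153 to 19176 CPM in the upper cluster and 13.3 to 81.3 CPM in the lower one.

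Cdh1 was 709.9 CPM in HP primary 6, 344 in HPN primary 1, 329 in HP primary 4 and 295 in HP primary 1. It was 161 in HP primary 3, 131 in HPN primary 4, 80.5 in HPN primary 6 and 69.4 in HPN primary 3, which completes the upper cluster (265 ± 210.5 CPM, n = 8). In the lower cluster it was 125 CPM in HPN primary 7, 77.1, 59.9 and 52.2 in HP primaries 9, 5 and 7, and 38.2 and 15.6 in HPN primaries 2 and 5 (61.4 ± 37.6 CPM, n = 6). The 6 highest primaries were all of the upper cluster and the 4 lowest all of the lower one, while between 69.4 and 125 CPM the clusters overlapped.

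Over the 14 primaries, with genotype in the model, Cdh1 rose by 0.33 log2 per unit of the keratinocyte mean (SE 0.056, edgeR adjusted p = 0.000302). Of 16578 genes tested, 41.7% were called for this slope, 22.8% of them upward and 18.9% downward as shares of all genes tested. Among the 9 members 5 were called. Without the 8 libraries of the set above 0 the Cdh1 slope was 0.42 (adjusted p = 0.000397). Because the primaries formed clusters, correlations were taken within each. In the upper cluster, Cdh1 and the keratinocyte mean had Pearson r = 0.924 (exact permutation p = 0.000942, adjusted over 36 relations 0.0339, n = 8). Spearman's rho was 0.905 there (exact permutation p = 0.00456, adjusted 0.0548). The r was 0.926 without the 2 samples farthest from the median and 0.914 over the 6 samples of the set at 0. In the lower cluster r was 0.507 (exact permutation p = 0.314, adjusted 0.662, n = 6), rho was 0.371 (exact permutation p = 0.497, adjusted 0.819) and r without the 2 farthest samples was 0.731. The relation of Cdh1 with keratinocyte content was therefore seen where keratinocyte markers were abundant and did not pass the test where they were scarce.

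**Figure D2:**
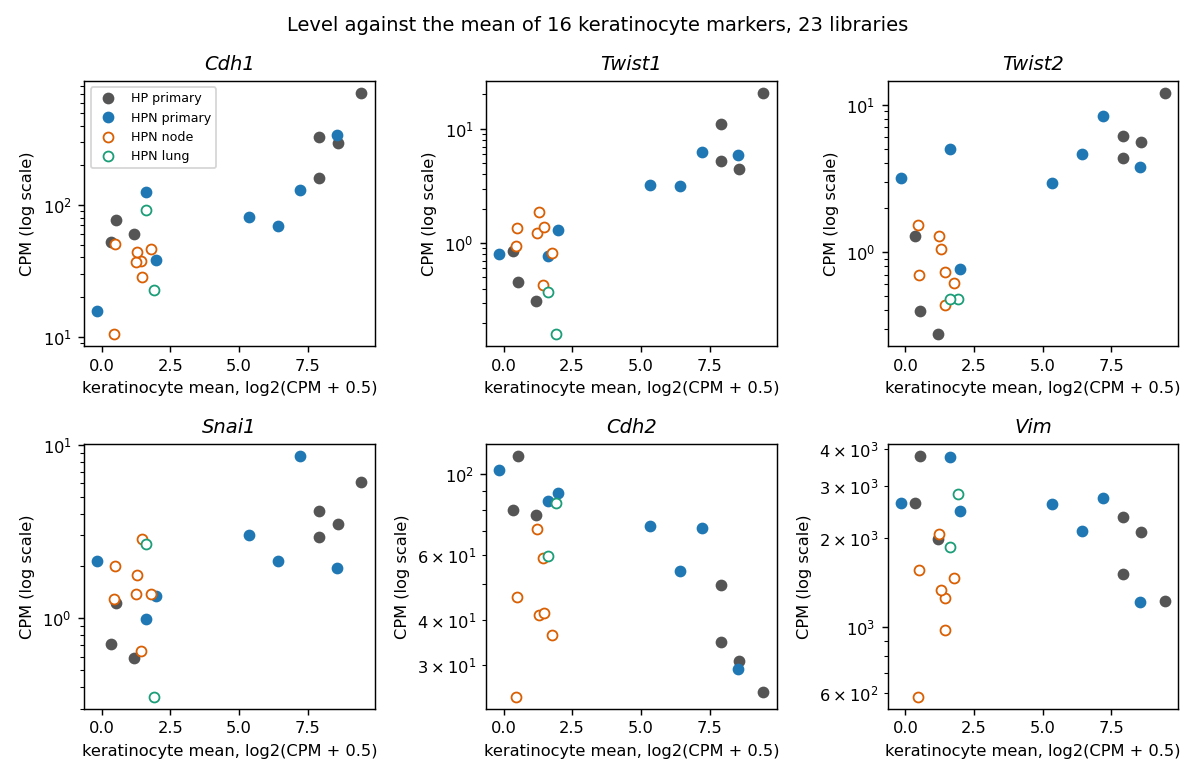
Level of 6 of the genes (CPM, log axis) against the mean log2(CPM + 0.5) of 16 keratinocyte markers in the 23 libraries, with primaries filled and metastases open. Cdh1, Twist1, Twist2 and Snai1 are higher in the primaries at the right, where the mean is above 5, and Cdh2 is lower there. Vim, whose slope did not pass the test, is plotted beside them.

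Cdh2 ran the other way. In HP primaries it was 30.9, 49.8, 34.8, 77.5, 25.4, 79.6 and 112 CPM (numbers 1, 3, 4, 5, 6, 7 and 9). In HPN primaries it was 29.3, 88.5, 54.4, 71.0, 102, 72.2 and 84.7 CPM (numbers 1 to 7). The upper cluster (25.4 to 72.2 CPM, 46.0 ± 18.7, n = 8) and the lower cluster (77.5 to 112 CPM, 90.8 ± 13.7, n = 6) did not overlap. How many of all genes separate the clusters in this way was not counted. The slope was -0.15 log2 per unit (SE 0.024, edgeR adjusted p = 0.000167). Within the upper cluster, Pearson r was -0.883 (exact permutation p = 0.00258, adjusted 0.0462, n = 8) and rho was -0.952 (exact permutation p = 0.00114, adjusted 0.0402). The r became -0.802 without the 2 farthest samples and -0.873 over the 6 samples of the set at 0. In the lower cluster r was -0.424 (exact permutation p = 0.386, adjusted 0.662, n = 6). Melanocyte markers moved with these groups: their mean was 8.80 to 11.02 in the upper cluster and 10.65 to 11.58 in the lower one, and 7 of the 8 were called with a negative slope. Their part in the Cdh2 result was not tested.

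Set per kilobase of exon, Cdh1 exceeded Cdh2 49.3-fold in HP primary 6 and 20.7-fold in HPN primary 1. In HPN primary 5, the primary lowest in keratinocyte markers, Cdh2 exceeded Cdh1 3.72-fold, and in HPN primary 2 it did so 1.31-fold. On this scale Cdh1 was the higher of the pair in the other 12 primaries. Among these, it was higher by 1.16-fold to 1.36-fold in HP primaries 5, 7 and 9 and 2.61-fold in HPN primary 7, all of the lower cluster. Annotated exons span 4574 bases for Cdh1 and 8066 for Cdh2. In CPM, without division by length, Cdh2 was the higher in HP primaries 5, 7 and 9 (77.5, 79.6 and 112, against 59.9, 52.2 and 77.1). The order in these HP primaries therefore rests on the exon length used.

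Twist1 and Twist2 encode basic helix-loop-helix factors and Snai1 a zinc-finger repressor of Cdh1. Twist1 was 4.45, 5.20, 11 and 20.6 CPM in HP primaries 1, 3, 4 and 6, against 0.311, 0.852 and 0.453 in HP 5, 7 and 9. Among HPN primaries it was 5.85, 3.19, 6.32 and 3.21 CPM in numbers 1, 3, 4 and 6, against 1.31, 0.797 and 0.765 in numbers 2, 5 and 7. The upper cluster (3.19 to 20.6 CPM) and the lower cluster (0.311 to 1.31 CPM) did not overlap for this gene. The share of all genes that separate the clusters was not counted, while 41.7% of 16578 genes were called for the slope.

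The slope of Twist1 on the keratinocyte mean was 0.48 log2 per unit (SE 0.055, edgeR adjusted p = 1.0e-05), the steepest of the 9 members. Twist2 rose by 0.31 (SE 0.080, adjusted p = 0.00635) and Snai1 by 0.27 log2 per unit (SE 0.057, adjusted p = 0.00193). Thus 4 members rose and 1 fell along the keratinocyte mean, and the factors that repress Cdh1 were on the same side as Cdh1. These slopes span both clusters, and within a cluster none of the factors passed. In the upper cluster r with the keratinocyte mean was 0.724 for Twist1, 0.610 for Twist2 and 0.213 for Snai1. Exact permutation p-values, adjusted, were 0.243, 0.351 and 0.845 (n = 8). In the lower cluster r was 0.268, -0.098 and -0.308 (adjusted 0.845, 0.891 and 0.845, n = 6). Without the set above 0 the slope calls of Twist2 (0.28, adjusted p = 0.096) and Snai1 (0.23, adjusted p = 0.0901) were lost, and those of Cdh1, Cdh2 and Twist1 stood. Vim (-0.074 log2 per unit, adjusted p = 0.0666), Fn1 (-0.23, adjusted p = 0.0554), Cd44 (-0.060, adjusted p = 0.135) and S100a4 (-0.011, adjusted p = 0.889) did not pass. The median slope of the members was -0.01 log2 per unit, as was that of all genes tested.

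Fibroblast markers moved with the clusters as well. The mean log2 level of 8 fibroblast markers (Dcn, Lum and others) was 7.30 to 9.62 in the upper cluster and 3.26 to 6.15 in the lower one, without overlap, and all 8 had called positive slopes. Within the upper cluster Twist1 had r = 0.896 with the fibroblast mean (exact permutation p = 0.00466, adjusted 0.0462, n = 8) and rho = 0.690 (exact permutation p = 0.0694, adjusted 0.357). Twist2 had r = 0.873 (exact permutation p = 0.00513, adjusted 0.0462, n = 8) and rho = 0.929 (exact permutation p = 0.00223, adjusted 0.0402). Both rested in part on the extreme samples, since r was 0.635 and 0.525 without the 2 farthest, and 0.767 and 0.713 over the 6 samples of the set at 0. Of the 36 relations computed (9 members, 2 marker means, 2 clusters), 4 Pearson and 2 Spearman values passed after adjustment, all in the upper cluster. Skeletal muscle, T cell and macrophage markers also had called positive slopes, 6 of 6, 8 of 8 and 7 of 8, and their part in the members' slopes was not tested.

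Other genes of the programme were read from lists of known members. Along the keratinocyte mean, 18 of 19 tested epithelial genes rose and none fell, and in the mesenchymal list 14 of 20 rose and 1 fell. Over all 16578 genes tested, 22.8% were called upward and 18.9% downward. Col1a1, Col1a2, Col3a1 and Pdgfrb of the mesenchymal list also belong to the fibroblast list. Among 9 other transcription factors of the transition 2 rose, Prrx1 (0.37 log2 per unit, SE 0.049, edgeR adjusted p = 4.29e-05) and Foxc2 (0.20, SE 0.058, adjusted p = 0.0131). Another 2 fell, Zeb2 (-0.11, SE 0.028, adjusted p = 0.00502) and Sox4 (-0.15, SE 0.038, adjusted p = 0.00625). Of the members that are mesenchymal markers, Cdh2 fell, and Vim and Fn1 had negative slopes that did not pass.

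Between the genotypes none of the 9 members was called, and none of 16578 genes was (0%; 477 genes had an unadjusted p under 0.05, and DESeq2 called 0 with 851 unadjusted). S100a4, a calcium-binding protein associated with motile cells, was the single member with an unadjusted p under 0.05. In HP primaries it was 73.4, 63.1, 82.7, 93.2, 46.2, 68.1 and 114 CPM (77.3 ± 22.0, SD, n = 7). In HPN primaries it was 41.1, 7.76, 21.9, 40.8, 18.0, 40.6 and 75.2 CPM (35.0 ± 22.1, n = 7), so that 6 of 7 lay below every HP primary and HPN primary 7 lay within their range. The log2 difference was -1.16 (SE 0.38, 2.24-fold lower in HPN, unadjusted p = 0.00875, edgeR adjusted p = 0.951). How many of all genes part the genotypes as far as S100a4 was not counted.

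S100a4 differed little by keratinocyte content, and its log2 difference was -1.16 with the keratinocyte mean as a covariate and -1.46 within the lower cluster. It was -1.54 within the set at 0 and -1.08 with this split as a term. None of these passed the adjustment (p between 0.694 and 0.999). Cdh1 was 241 ± 235 CPM in HP and 115 ± 109 CPM in HPN primaries (log2 difference -1.09, SE 0.72, adjusted p = 0.951), and -0.09 within the lower cluster. In the upper cluster Cdh1 was 374 ± 235 CPM in HP and 156 ± 128 CPM in HPN primaries (n = 4 each). Keratinocyte means there were 7.92 to 9.46 in HP and 5.35 to 8.55 in HPN primaries. The genotypes' ranges of Cdh1 overlapped (52.2 to 709.9 CPM in HP and 15.6 to 344 CPM in HPN primaries).

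The remaining log2 differences between the genotypes were -1.03 for Twist1, -0.65 for Fn1, -0.12 for Twist2, -0.11 for Cd44, 0.04 for Snai1, 0.14 for Vim and 0.28 for Cdh2. Their adjusted p-values in edgeR were between 0.951 and 0.993. The members' median was -0.12, against -0.05 over all genes tested. Fn1 in HP primaries was 733, 932, 362, 2294, 509.6, 3770.1 and 9888 CPM, so that 1 library carried much of its mean of 2641 ± 3421 CPM. Without HP primary 9 the log2 difference of Fn1 was 0.20 rather than -0.65. In the upper cluster Fn1 was 634 ± 251 CPM in HP and 1949 ± 1190 CPM in HPN primaries (n = 4 each). In the lower cluster it was 5317 ± 4026 CPM in HP and 1235 ± 441 CPM in HPN primaries (n = 3 each). The genotypes thus stood in opposite order in the 2 clusters, which was not tested.

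**Figure D3:**
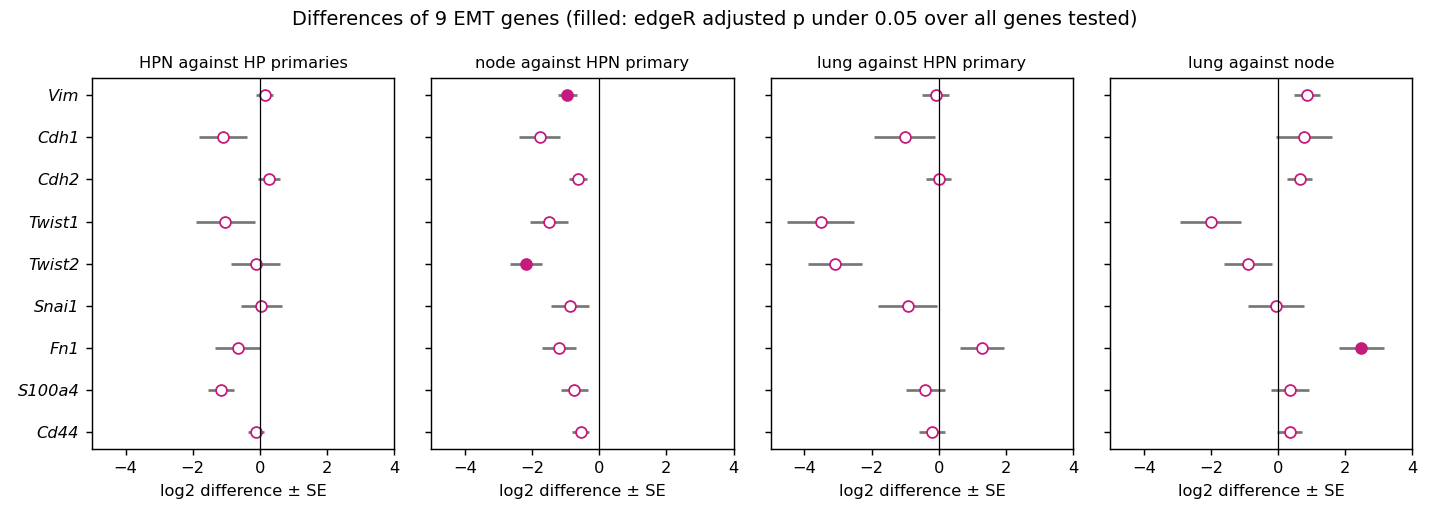
Log2 difference ± SE of the 9 genes in 4 comparisons, with filled points where the edgeR adjusted p was under 0.05 over all genes tested. All 9 points of the node comparison lie below 0, with Vim and Twist2 filled, and Fn1 is the filled point of the lung against node comparison.

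In lymph node metastases all 9 members had lower fitted levels than in HPN primaries, and 2 of them, Twist2 and Vim, fell. Over the 19152 genes tested, 22.5% were called, 12.7% higher and 9.81% lower. The members' median log2 difference was -0.95, against -0.08 over all genes. Twist2 was 3.80, 0.759, 4.60, 8.39, 3.19, 2.95 and 5.0 CPM in HPN primaries 1 to 7. In nodes 3, 4, 5, 6 and 8 it was 0.434, 1.29, 1.51, 0.694 and 0.728 CPM, and 0.838 in the summed node 7. Of the 7 primaries 6 lay above every node, and HPN primary 2 lay among the nodes. The log2 difference was -2.19 (SE 0.48, 4.56-fold lower, edgeR adjusted p = 0.00556). How many of all genes part nodes from primaries this far was not counted, for Twist2 or for the members below.

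Vim was 1219, 2463, 2110.3, 2738, 2623, 2608 and 3748 CPM in HPN primaries 1 to 7. It was 1259.9, 2073, 583, 1561 and 981 CPM in nodes 3, 4, 5, 6 and 8, and 1401 in node 7. HPN primary 1 lay among the nodes and the other 6 primaries above all of them. The log2 difference was -0.95 (SE 0.28, 1.93-fold lower, edgeR adjusted p = 0.027). This call was lost without node 3 (adjusted p = 0.0562), node 5 (0.0605) or node 8 (0.0662). With title number as a block 1274 genes were called rather than 4313, and the block gave Vim -1.09 (adjusted p = 0.0843) and Twist2 -2.36 (adjusted p = 0.0271). Within the set at 0 neither passed (Vim -0.78, adjusted p = 0.178, and Twist2 -2.04, adjusted p = 0.0669), while with this split as a term both did (adjusted p = 0.0386 and 0.0102).

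Cdh1 in the nodes was 37.7, 37.2, 10.5, 50.2, 45.0 and 28.3 CPM (numbers 3 to 8; 34.8 ± 14.1, n = 6). Every node lay below 5 of the 7 HPN primaries. The log2 difference of -1.77 (SE 0.61, edgeR adjusted p = 0.0512) missed the threshold. With the keratinocyte mean as a covariate it was -0.44 (adjusted p = 0.578), and against the 3 HPN primaries of the lower cluster alone -0.76 (adjusted p = 0.376). DESeq2 gave -1.79 (adjusted p = 0.0121), and the call was also made without HPN primary 2 (adjusted p = 0.0408), HPN primary 5 (0.0225), lung 3 (0.0482) or lung 4 (0.0488). In 5 of 6 nodes Cdh1 was therefore within the range of the primaries poor in keratinocyte markers (15.6 to 125 CPM), and in node 5 below it.

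Twist1 was 0.434, 1.23, 0.950, 1.36, 1.36 and 1.37 CPM in the nodes, against 0.765 to 1.31 CPM in the lower-cluster HPN primaries and 3.19 to 6.32 CPM in the others. Its log2 difference of -1.50 (SE 0.55, edgeR adjusted p = 0.0645) missed the threshold. It was called in 4 other fits, among them those without HPN primary 5 (adjusted p = 0.0400) or HPN primary 7 (0.0351). The difference turned to 0.20 with the keratinocyte mean as a covariate (adjusted p = 0.746) and to 0.23 against the lower cluster alone (adjusted p = 0.732). Twist1 and Twist2 parted here, since Twist2 was lower in nodes with the covariate (-1.76, adjusted p = 0.0251) and against the lower cluster (-1.69, adjusted p = 0.0438). Vim did too (-1.17, adjusted p = 0.021, and -1.17, adjusted p = 0.0321). Cdh2 passed in these fits (-0.97 in each, adjusted p = 0.0197 and 0.0247), but not over all HPN primaries (-0.63, SE 0.26, adjusted p = 0.0949).

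Fn1, which encodes the matrix protein fibronectin, was 366, 2213, 247, 691, 517 and 391 CPM in the nodes and 741 to 3500.0 CPM in HPN primaries. Of the 6 nodes 5 lay below every primary and node 4 within their range. The log2 difference was -1.19 (SE 0.50, edgeR adjusted p = 0.0987), and without node 4 it was -1.91 and passed (adjusted p = 0.00396). Snai1 (-0.87, adjusted p = 0.278), S100a4 (-0.74, adjusted p = 0.185) and Cd44 (-0.56, adjusted p = 0.137) did not pass.

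Nodes held more lymphoid RNA than the primaries. All 8 B cell markers and all 8 T cell markers were called higher, with B cell means of 4.49 to 7.76 in nodes and -0.77 to 0.74 in HPN primaries, and T cell means of 3.18 to 5.99 and -0.33 to 2.04. No marker of either list was at 0 in all libraries of a group. Of the 8 B cell markers 5 passed the low-count filter in the fit of the primaries, so the others may have entered only through the nodes. Melanocyte markers had a median log2 difference of -0.80 with none of 8 called. All 6 skeletal muscle markers fell (median -7.87), with summed levels of 2.22 to 3377 CPM in HPN primaries and 2.62 to 7.48 CPM in nodes. Of 8 macrophage and 6 endothelial markers 2 each rose. The part of these other cells in the members' values was not tested.

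Among the other genes of the programme, 12 of 25 tested epithelial genes fell in nodes and none rose. They included the desmosomal plaque protein Dsp (-7.40, SE 1.67, edgeR adjusted p = 0.00671), the splicing regulator Esrp1 (-6.77, SE 1.57, adjusted p = 0.00781), the factor Grhl2 (-5.11, SE 1.18, adjusted p = 0.00781) and the tight junction gene Cldn4 (-5.98, SE 1.43, adjusted p = 0.00932). Of 16 keratinocyte markers 14 fell as well. In the mesenchymal list 4 of 20 fell and none rose, among them Postn (-1.86, adjusted p = 0.0143), which encodes the matrix protein periostin, and the collagen gene Col1a1 (-2.01, adjusted p = 0.025).

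Cadherins are tied to the cytoskeleton by catenins and related proteins, and 5 of 6 genes of such partners fell in nodes: Afdn, Ctnnd1, Vcl, Jup and Ctnna1 (log2 -0.79, -0.68, -0.76, -2.41 and -0.75). Of 9 other cadherins tested 3 fell, Cdh10, Cdh15 and Cdh6 (-2.57, -3.49 and -2.11). Of the intermediate filament genes and their partners 3 of 6 fell beside Vim, with Nes, which encodes nestin, at -2.44 (SE 0.39, edgeR adjusted p = 0.000754), Lmna at -1.48 and Plec at -0.94. In the S100 list 3 of 10 other genes fell, S100a3 (-6.99), S100a16 (-1.56) and S100a6 (-1.27). Of 15 partners of CD44 and fibronectin 3 fell: the integrin subunits Itga5 and Itgav, and the hyaluronidase Hyal1.

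The other transcription factors of the transition were mixed in nodes, with 2 of 10 lower, Sox9 (-1.92, SE 0.48, edgeR adjusted p = 0.0121) and Sox4 (-0.85, SE 0.23, adjusted p = 0.0152). Tcf3 was higher (0.67, SE 0.18, adjusted p = 0.0158). In the TGF-beta list, whose ligands can start the transition, 1 of 15 rose and 1 fell. These were the receptor Tgfbr1 (0.84, SE 0.14, adjusted p = 0.00112) and the ligand Tgfb2 (-1.61, SE 0.45, adjusted p = 0.0205).

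**Figure D4:**
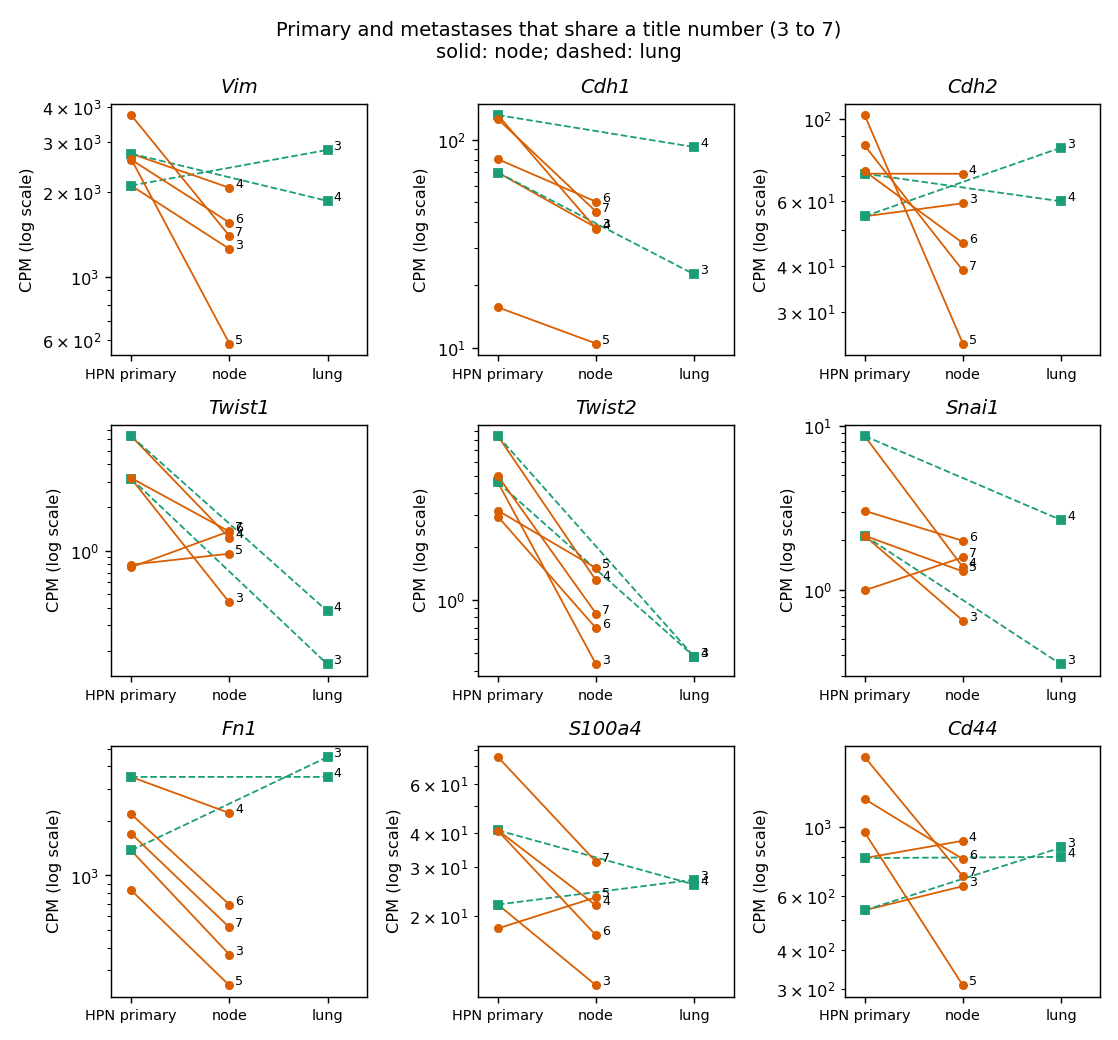
Level of each gene (CPM, log axis) in an HPN primary and the metastases with the same title number, with solid lines to nodes (numbers 3 to 7) and dashed lines to lungs (numbers 3 and 4). Lines to nodes descend in all 5 numbers for Vim, Cdh1, Twist2 and Fn1, and the Fn1 lines to the lungs do not descend.

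Read within title numbers 3 to 7, on the log2(CPM + 0.5) scale, nodes were below their primary in 5 of 5 cases for Cdh1 (-1.80 to -0.56), Twist2 (-2.45 to -0.87), Fn1 (-1.91 to -0.66) and Vim (-2.17 to -0.40). They were below it in 4 of 5 for Cdh2, S100a4 and Snai1 and in 3 of 5 for Twist1 and Cd44. Node 5, the node with the lowest melanocyte marker mean, had the largest drop of Vim (-2.17), Cdh2 (-2.03) and Cd44 (-1.64). It had the smallest drop of Cdh1 (-0.56) and Twist2 (-0.87), and its S100a4 was above that of its primary (0.37). Of the 4 members lower in all 5 numbers, Cdh1 and Fn1 did not pass over all samples. The share of all genes lower in all 5 numbers was not counted, so this count does not set the members apart.

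The 2 lung metastases were compared with the same HPN primaries as the nodes, so the site comparisons are not independent. No member was called in lung, where 0.266% of 19152 genes were (0.251% higher and 0.0157% lower). Twist1 was 0.160 and 0.375 CPM in lungs 3 and 4, from 5 and 11 counts, which was below every primary of the same genotype. The log2 difference was -3.51 (SE 0.998, edgeR adjusted p = 0.295, unadjusted p = 0.00317). Twist2 was 0.480 and 0.478 CPM, from 15 and 14 counts, again below every HPN primary (log2 -3.09, SE 0.81, adjusted p = 0.207, unadjusted p = 0.00166). HP primaries 5 and 9 (0.276 and 0.394 CPM) and node 3 (0.434 CPM) lay below both lungs for Twist2. The share of all genes that lay below every HPN primary in both lungs was not counted. DESeq2 called both Twist genes in lung (adjusted p = 0.00536 for Twist1 and 0.00186 for Twist2). Within the set at 0 the values were -3.68 and -3.05, and with title number as a block 0 genes were called.

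Fibroblast marker means were 4.12 and 6.09 in lungs 3 and 4, against 5.10 to 8.22 in HPN primaries, so lung 4 lay within their range. Keratinocyte marker means were 1.91 and 1.61, against -0.15 to 8.55 in HPN primaries. The part of these cells in the Twist values was not tested. With the keratinocyte mean as a covariate the log2 differences were -2.06 for Twist1 and -2.75 for Twist2. The other members in lung against primary were Fn1 at 1.28 (SE 0.66, adjusted p = 0.716), Cdh1 at -1.01, Snai1 at -0.93, S100a4 at -0.40, Cd44 at -0.21, Vim at -0.09 and Cdh2 at 0.0041. Adjusted p-values of these last 6 lay between 0.911 and 1. The members' median was -0.40, against -0.06 over all genes.

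Fn1 rose in lungs relative to nodes and was the single member called between the metastatic sites, where 5.04% of genes were called, 1.96% higher and 3.09% lower. It was 4512 and 3500.1 CPM in lungs 3 and 4, above all 6 nodes (247 to 2213 CPM), a log2 difference of 2.48 (SE 0.66, 5.58-fold higher, edgeR adjusted p = 0.0453). The size held between 2.28 and 3.20 as each sample was left out, but the call was lost without HPN primary 2, 3, 6 or 7, node 3, 5, 6, 7 or 8, or either lung, with the highest adjusted p of 0.198 without lung 3. It was also lost with title number as a block (2.36, adjusted p = 0.23), where 0 genes were called between the sites, with this split as a term (2.35, adjusted p = 0.0846), within the set at 0 (2.23, adjusted p = 0.181) and without the filter on low counts (2.44, adjusted p = 0.0531).

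The lungs differed from each other. Markers of alveolar epithelium, the lining of the air sacs, summed to 7146 CPM in lung 4 and 4.35 CPM in lung 3, with Cdh1 at 92.0 and 22.5 CPM and Snai1 at 2.66 and 0.352 CPM. Fn1 was 4512 CPM in lung 3 and 3500.1 CPM in lung 4. The part of lung tissue in these values was not tested. The other 8 members did not pass between lung and node, with Vim at 0.86 (adjusted p = 0.203), Twist1 at -2.02 (adjusted p = 0.206), Cdh2 at 0.64 and Cdh1 at 0.76. The members' median was 0.35, against 0.01 over all genes.

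In the lists, lung against primary gave no call among the other genes of the programme. Between lung and node, 3 of 25 epithelial genes were higher in lung: the tight junction genes Tjp1 (1.21) and Cldn3 (8.03) and the keratin Krt8 (6.66). Markers of lung tissue were higher there too: 4 of 5 tested for alveolar epithelium, 1 of 3 for airway epithelium and 4 of 4 for mesothelium, the lining of the pleura. Against HPN primaries these counts were 3 of 5, 1 of 3 and 4 of 4. In the fit of the primaries 2 of 6 alveolar and 0 of 4 mesothelial markers passed the low-count filter. In the HPN fit such markers may have entered only through the lungs, where they are high. Their counts therefore describe the lungs and are no test of lung tissue. Mesothelial markers summed to 2.30 CPM in lung 3 and 174 CPM in lung 4, and airway markers to 1.18 and 779 CPM. Their part in the epithelial genes was not tested. In the mesenchymal list 2 of 20 were lower, Thy1 (-4.09) and Fap (-3.44). Also lower in lung than in node were 8 of 8 B cell, 7 of 8 T cell and 1 of 8 fibroblast markers. Some of these B cell markers may have entered the test only through the nodes. The part of these cells in the values of Thy1 and Fap was not tested. Tgfb2 was higher (2.70, SE 0.58, edgeR adjusted p = 0.028), as was Nes (3.49, SE 0.48, adjusted p = 0.0128). Both had fallen in nodes relative to primaries.

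Across all 23 libraries the members split into patterns. As a description, with nodes 7a and 7b sharing a title number and without a p, the highest Spearman rho between 2 members was 0.832, for Vim and Cdh2. It was 0.804 for Twist1 and Snai1, 0.794 for Vim and Fn1 and 0.791 for Twist1 and Twist2, and the lowest was -0.575, for Cdh2 and Twist1. Among 11621 other genes the closest in pattern to Twist1 were Fbln7, Lum and Ephx3 (rho 0.929, 0.929 and 0.927). Those closest to Twist2 were Col12a1, Kif26b and Postn (0.861, 0.841 and 0.825), and those closest to Snai1 were Loxl1, Serpinf1 and Metrnl (0.926, 0.906 and 0.892). Lum is in the fibroblast list and Postn in the mesenchymal list.

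Homer2, Crabp2 and Frem2 came closest to Cdh1 (rho 0.909, 0.883 and 0.883). For Vim these were Tubb6, Sgta and Vat1 (0.952, 0.938 and 0.916). Nf1 and B3glct were among the closest to Cdh2 (0.968 and 0.952), and Tax1bp3 and Srgap1 among the closest to Fn1 (0.927 and 0.921). S100a4 was closest to its family member S100a6 (0.833), then to Slc22a23 and Rab5a (0.798 and 0.781). Cd44 was closest to Med19, Tmem41b and Kdelr2 (0.904, 0.900 and 0.892).

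Some counts could be shared with overlapping genes, since the strand setting of the counting is not given in the sources used here. In GENCODE vM21, Twist2 shares 1477 of 3174 exonic bases with the antisense gene Gm29100, and S100a4 shares 302 of 584 with Gm42674 on the same strand. Neither of those genes was among the counted identifiers. Fn1 shares 292 bases with the antisense Apol7d, which had 797 counts over all libraries, and the other 6 members share none.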

How the data were processed

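Counts of reads per Ensembl gene, 1 table per library, were used as deposited by the authors, not normalized. Per the labels' protocols, total RNA went into directional libraries. The submitters' processing notes name bcl2fastq 1.8.4, STAR 2.5.3a and the build mm9. Which tool counted the reads, with what strand setting and annotation, is not given in the sources used here. Summary entries that name no gene, 49.2 to 75.0% of all entries, were left out. Symbols, exon lengths and overlaps came from GENCODE vM21 (GRCm38), which named 87.45% of identifiers.

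The quasi-likelihood F test of edgeR 4.0.16 (R 4.3.3) was run with its low-count filter (filterByExpr), TMM scaling and robust dispersions, with Benjamini-Hochberg adjustment over all genes tested and a threshold of 0.05. A gene is called where it passes. SEs were derived from the F statistic. One fit held the 14 primaries and another the 15 HPN samples, whose 3 groups share 1 estimate of the spread. The keratinocyte slope used the 14 primaries with genotype as a term, and the marker Flg had no matching identifier. Displayed levels are CPM with TMM over all 23 libraries, and 0.5 CPM was added before taking log2. Correlation p-values are exact, two-sided permutations (scipy 1.17.1, Python 3.11.15). The statistics were tested on simulated data.

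The pairing of metastases with primaries comes from title numbers. Deviations from the group means of same-numbered primary and node samples correlated at 0.25, -0.04, -0.14, 0.35 and 0.10 (numbers 3 to 7), and only number 6 correlated best with its own primary. No 2 libraries held identical values.

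All 9 members are named in every comparison. Of each pathway list with a call, up to 4 genes with the smallest p were named, and others only where a count needed completing. For likeness, the 3 genes with the highest rho among named genes with a mean of at least 5 CPM were taken, of which 2 are not reported here. Members and lists were chosen with earlier results of these data known. Alternatives were DESeq2 1.42.0, its size factors, other filters, each sample left out, the block, the split by low-quality entries, the keratinocyte covariate and nodes 7a and 7b apart. The lower-cluster comparisons and the fibroblast relations were added after seeing the data.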

Additional observations from a re-analysis of the deposited data

Results flagged for a closer look

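Of 27 groups of 6 or 7 samples checked (9 genes in 3 groups), 5 had a highest sample set apart from the rest by most of the group's range. The cutoff marks about 1 in 20 groups only where values are normally spread. This was not tested for CPM, so the count is not set against a rate by chance. Cdh1 was 709.9 CPM in HP primary 6, where the other HP primaries reached 329 CPM, and 344 CPM in HPN primary 1, where the other HPN primaries reached 131 CPM. These 2 libraries had the highest and the third highest keratinocyte means among the primaries (9.46 and 8.55). Snai1 was 8.65 CPM in HPN primary 4, where the others reached 3.03 CPM. Fn1 was 9888 CPM in HP primary 9, where the others reached 3770.1 CPM, and 2213 CPM in node 4, where the others reached 691 CPM. HPN primary 4, which shares the number of node 4, held 3500.0 CPM of Fn1, the highest of the HPN primaries.

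Fn1 was also picked out because its difference from the HPN primaries differed between the metastatic sites. It was -1.19 log2 in nodes and 1.28 in lungs, and the direct test of lung against node gave 2.48 (edgeR adjusted p = 0.0453).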

How the results depend on the processing

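Of 1053 values of the 9 members under other settings, 957 kept their direction and side of the threshold, 26 were newly called, 23 lost a call and 47 changed sign. Leaving out each sample in turn, genes called ranged from 2731 to 5333 for node against primary (lowest without node 5), 0 to 393 for lung against primary (0 without lung 4, 393 without lung 3) and 0 to 2017 for lung against node (0 without lung 4, 2017 without node 4). Members called ranged from 1 to 4 for nodes and 0 to 1 for lung against node. No member was called between genotypes in any fit that left out a sample.

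Genes called in lung against primary were 352 with DESeq2 (47.4% of them higher, against 94.1% of 51), 138 without a filter, 12 with a filter of over 1 CPM, 1 without the libraries with low-quality reads, 171 with the keratinocyte covariate and 1 against the lower cluster. In lung against node they were 2469 with DESeq2, 0 without those libraries, 263 with the split by low-quality reads as a term and 1970 with the covariate. Without those libraries 1542 genes were called for nodes, and 3 members for the slope. DESeq2 called 4 members for nodes and 2 for lung, and 4 were called for nodes with 7a and 7b apart. Members called for nodes were 0 without the libraries with low-quality reads. In lung against node they were 0 without a filter, without those libraries and with that split as a term, and 2 with the covariate. The genotype comparison within the lower cluster called 1 gene. The r of Cdh1 with the keratinocyte mean in the lower cluster was 0.731 without the 2 farthest samples.

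The replicate block left 1274 genes and 1 member called for nodes, 0 genes for lung, and 0 genes and 0 members for lung against node. HP and HPN primaries share only a number, and 1 gene and no member was called with that block, in which no sample correlated best with its own number. The block changed no call of a member other than those of Vim and Fn1 given above. It gave log2 differences between genotypes of 0.47 for Twist2 and 0.47 for Fn1, and -0.25 for Cdh2 in lung against primary.

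No value that changed sign was called in either fit, and the cause was not tested. Between genotypes these were 0.55 for Fn1 and 0.14 for Cd44 without the libraries with low-quality reads, -0.081 for Snai1, 0.11 for Fn1 and 0.18 for Cd44 with that split as a term, and 0.87 for Twist2 and 0.035 for Fn1 with the covariate. Within the lower cluster they were 0.83 for Twist1, 2.19 for Twist2 and 0.0020 for Cd44. In lung against primary, Vim was 0.024 without those libraries. Cdh2 was -0.0023 without a filter, -0.011 with that split, -0.26 with the covariate and -0.33 against the lower cluster. Cdh1 was 0.16 with the covariate and 0.010 against the lower cluster, and Snai1 0.065 there. In nodes, Twist1 was 0.20 with the covariate and 0.23 against the lower cluster, and Snai1 0.12 there. In lung against node, Snai1 was 0.23 without those libraries. The slope of S100a4 was 0.11 without them and 0.011 with that split. Leaving out single samples moved genotype differences from -0.53 to 0.36 for Snai1, -0.38 to 0.39 for Twist2 and -0.94 to 0.20 for Fn1, and the slope of S100a4 from -0.039 to 0.032. In lung against primary the ranges were -0.23 to 0.22 for Cdh2 and -0.39 to 0.18 for Vim, and in lung against node -2.19 to 0.76 for Snai1 and -0.62 to 1.45 for Cdh1.

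Another scaling (DESeq2 size factors) changed no call of a member. Twist1 and Twist2 in the lungs rest on 5 to 15 counts, which limits their precision, and 2 lungs limit every comparison with that site.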
